A study of Arabidopsis thaliana with 12 samples.

Results

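The genes described here encode proteins of the plastid ribosome in Arabidopsis thaliana. They are the 6 loci AT1G64510 (RPS6), AT3G13120 (RPS10), AT4G01310 (RPL5), AT3G54210 (RPL17), AT5G65220 (RPL29) and AT1G29070 (RPL34), each measured by 1 array probe that the platform annotation assigns to that gene alone. They are 6 of the 689 loci that could be measured in this way. RPS6 and RPS10 belong to the small subunit and the other 4 to the large subunit; these are the usual names of the loci, which the gene table used here lists by locus only.

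Plastids keep a ribosome of the bacterial kind. Its RNAs and some of its proteins are encoded in the plastid genome, whereas many of its proteins, these 6 among them, are encoded in the nucleus, made in the cytosol and imported. In leaves this ribosome makes the plastid-encoded subunits of the photosystems, including the D1 protein of photosystem II, which is damaged in strong light and replaced by new synthesis during repair.

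Total RNA was measured on 12 expression arrays, 6 per group. The recovery group was wild-type Columbia 0 first kept for 24 h at 4 °C in medium light and then returned to 20 °C, in the same light, for another 24 h. The cold group was the same wild type straight after 24 h in medium light at 4 °C, a treatment that the labels call photoinhibitory. All plants had thus been through the cold, and recovery plants were taken after 24 h more of treatment. No plants kept out of the cold are part of the comparison. The light intensity, the age of the plants and the organ taken are not given in the sources used here, nor is it stated that samples came from separate plants. The p-values below thus reflect how these 12 samples scatter, and that scatter may be technical. Slides, scans and extractions are not described in the labels, and if such batches coincide with the groups, both cannot be told apart. In bulk RNA, fewer cells of a type and less RNA per cell cannot be told apart.

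The overall level of the arrays differed between the groups, which touches every value below. Sample medians of the deposited signal were 0.0971 to 0.128 in recovery and 0.276 to 0.315 in cold, and 11.3% to 16.4% of probes were listed at 0 in recovery samples against 5.26% to 6.57% in cold samples. At the top of the scale, 5 probes stood at 100 in each recovery sample and 0 to 2 in each cold sample. A change between groups therefore depends on how samples are scaled to each other, and it is given here against the remaining probes on that array, beside the deposited signals. LHCB1.5, an antenna gene of photosystem II used as a check for green tissue, had more signal than at least 97.8% of probes in every sample. After quantile normalization the 3 green tissue genes LHCB1.5, PSAN and PRK all rose in recovery, by 1.44 to 2.59 on the log2 scale. On that scale 21.4% of all probes passed as higher in recovery. In deposited signal the groups of PRK overlapped, with a ratio of means of 1.46, and those of LHCB1.5 and PSAN did not. The part of these 3 genes in the changes described here was not tested. None of the 4 root and 3 epidermis and guard cell genes looked for had a probe of its own, so RNA of those cells was not checked.

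Of the 6 plastid ribosomal protein genes, 4 rose in recovery relative to the other probes and 2 did not pass the test. The 4 were RPS6 and RPS10 of the small subunit and RPL5 and RPL17 of the large subunit. Their changes after quantile normalization ran from 1.07 to 2.45 on the scale of log2(signal + pseudocount). In the limma fit over all 3439 probes, 21.4% of probes passed as higher in recovery and 40.7% passed in either direction. Over the 6 genes the median change was 1.12, against 0.11 over all probes, though RPL29 and RPL34, mostly listed at 0, have no usable fold of their own. As deposited, with no scaling between samples, 1 of the 6 genes passed as higher, RPS6, where 5.58% of all probes did.

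RPS6 of the small subunit, which in bacteria binds the central domain of the small ribosomal RNA beside protein S18, changed most of the 4. Its deposited signal in recovery samples was 0.118 at the lowest, 0.204 at the median and 0.246 at the highest. In cold samples it was 0.00609, 0.0586 and 0.0835 in the same order. Every recovery sample was thus above every cold sample, a separation in that direction that 4.91% of all probes showed in deposited signal. Averaged over neighbouring samples, the signal was 0.193 ± 0.0460 in recovery and 0.0488 ± 0.0353 in cold (SD, n = 3 each), a ratio of 3.96. On the normalized scale the rise of RPS6 was 2.45 ± 0.30 (SE, n = 3 per group), which is 5.46-fold, and the limma fit gave an adjusted p of 1.22e-04. The cold signal lay around the pseudocount of 0.0415, above it in 4 of 6 samples, so the size of the fold rests on that constant: halving the constant gave a change of 3.03, and doubling it gave 1.86.

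RPS10, the other small-subunit gene, encodes a protein of the head of the subunit; its bacterial counterpart also takes part in transcription antitermination. The lowest, median and highest deposited signals were 0.163, 0.271 and 0.365 in recovery and 0.147, 0.212 and 0.270 in cold. The groups overlapped: 3 of 6 recovery samples were above every cold sample. Relative to the other probes RPS10 rose in recovery, the change being 1.37 ± 0.24 (SE over 3 averages per group) at an adjusted p of 0.00108. As deposited the difference was 0.28 ± 0.23 with an adjusted p of 0.315, so the call depends on the scaling.

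RPL5 and RPL17 gave nearly the same picture in the large subunit. In bacteria L5 binds the 5S ribosomal RNA in the central protuberance, and L17 lies near the exit of the peptide tunnel. The deposited signal of RPL5 was 0.277, 0.313 and 0.370 in recovery (lowest, median and highest) and 0.211, 0.315 and 0.378 in cold. The recovery values lay inside the range of the cold values. For RPL17 the 3 values were 0.491, 0.585 and 0.670 in recovery, against 0.447, 0.505 and 0.683 in cold, again with the recovery range inside the cold range. Mean deposited signal in recovery was 1.04 times that in cold for RPL5 and 1.08 times for RPL17. Relative to the other probes both rose: RPL5 by 1.17 ± 0.20, with an adjusted p of 0.00103, and RPL17 by 1.07 ± 0.18 (SE over 3 averages per group, adjusted p = 8.30e-04). As deposited neither passed, with differences of 0.070 for RPL5 and 0.11 for RPL17 and adjusted p of 0.773 and 0.601. The median of all probes in that setting was at -0.86.

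**Figure D1:**
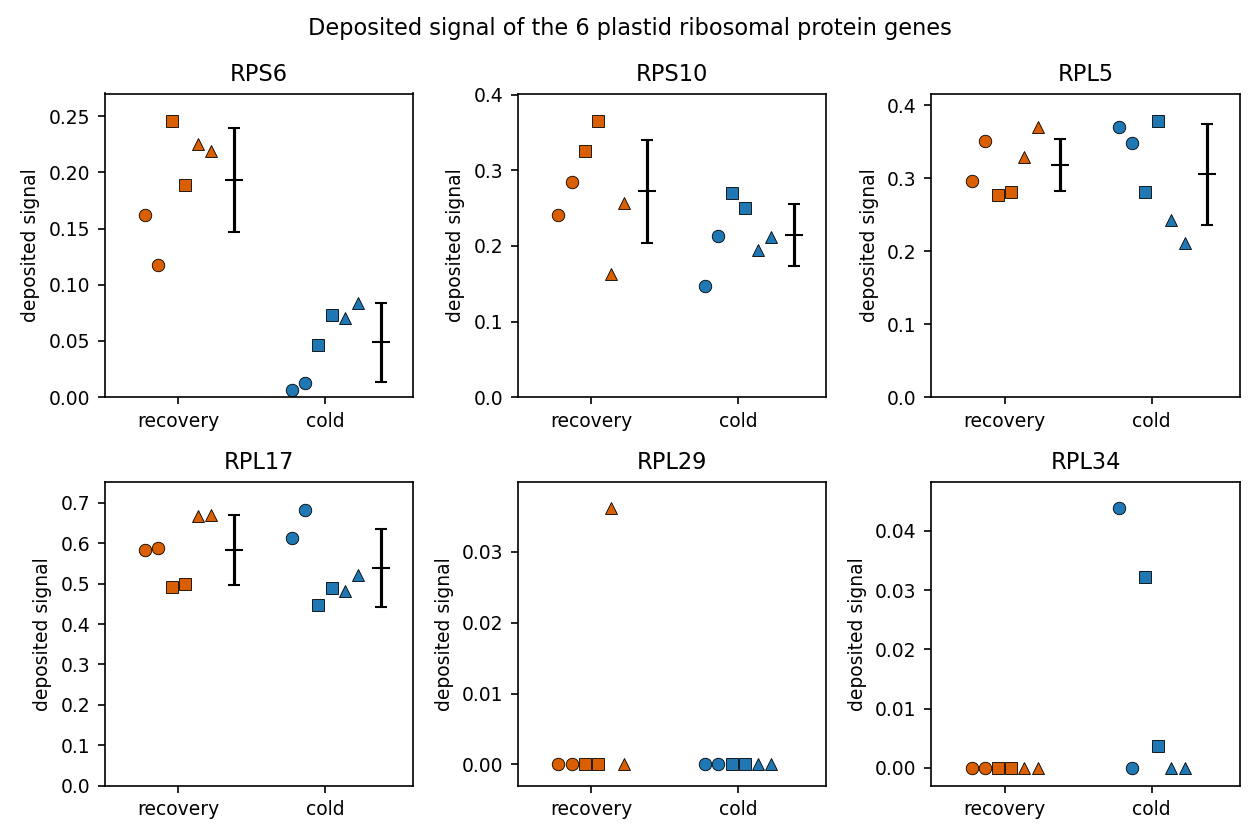
Deposited signal (vertical axis, linear, unit not given in the sources used here) of each gene in the 6 recovery and 6 cold samples; circles, squares and triangles are samples 1 and 2, 3 and 4, and 5 and 6, and black bars are the mean ± SD of the 3 averages of neighbours, left out for RPL29 and RPL34. The groups of RPS6 do not overlap, those of RPS10, RPL5 and RPL17 do, and RPL29 and RPL34 lie at or near 0.

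RPL29 and RPL34 could not be followed. L29 lies beside the peptide exit tunnel in bacteria, and L34 is a very short ribosomal protein. For RPL29 the table holds 0 in 5 of 6 recovery samples and in 6 of 6 cold samples, and the 1 value above 0 was 0.0363 in recovery sample 5. RPL34 was listed at 0 in 6 of 6 recovery samples and in 3 of 6 cold samples; the 3 cold samples above 0 had 0.0438, 0.0322 and 0.00370. All of these values but the first of RPL34 lie below the pseudocount. No fold is given for either gene, and a listed 0 is not read as absence of the transcript.

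The place of a gene within its own array does not depend on a common factor of the sample. It was measured as the percentage of the 3439 probes with a lower signal in the same sample. Quantile normalization sets the value of a probe from this place, so place restates the normalized comparison and is not a separate check. Probes listed without signal count as lower, and they made up 11.3% to 16.4% of recovery samples and 5.26% to 6.57% of cold samples. How far this shifted the places was not tested. RPS6 stood above 47.3%, 68.2% and 71.8% of probes in recovery (lowest, median and highest sample), against 7.15%, 10.8% and 16.6% in cold. RPS10 stood above 62.6%, 71.9% and 78.05% in recovery and above 26.7%, 39.4% and 47.3% in cold. RPL5 stood above 73.3%, 75.2% and 77.9% in recovery, against 40.5%, 51.0% and 58.1% in cold. For RPL17 the values were 81.9%, 83.6% and 85.7% in recovery and 64.6%, 68.9% and 73.7% in cold. In each of these 4 genes every recovery sample stood higher than every cold sample, also where the deposited signals overlapped. By place, 16.6% of all probes were separated in that direction.

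**Figure D2:**
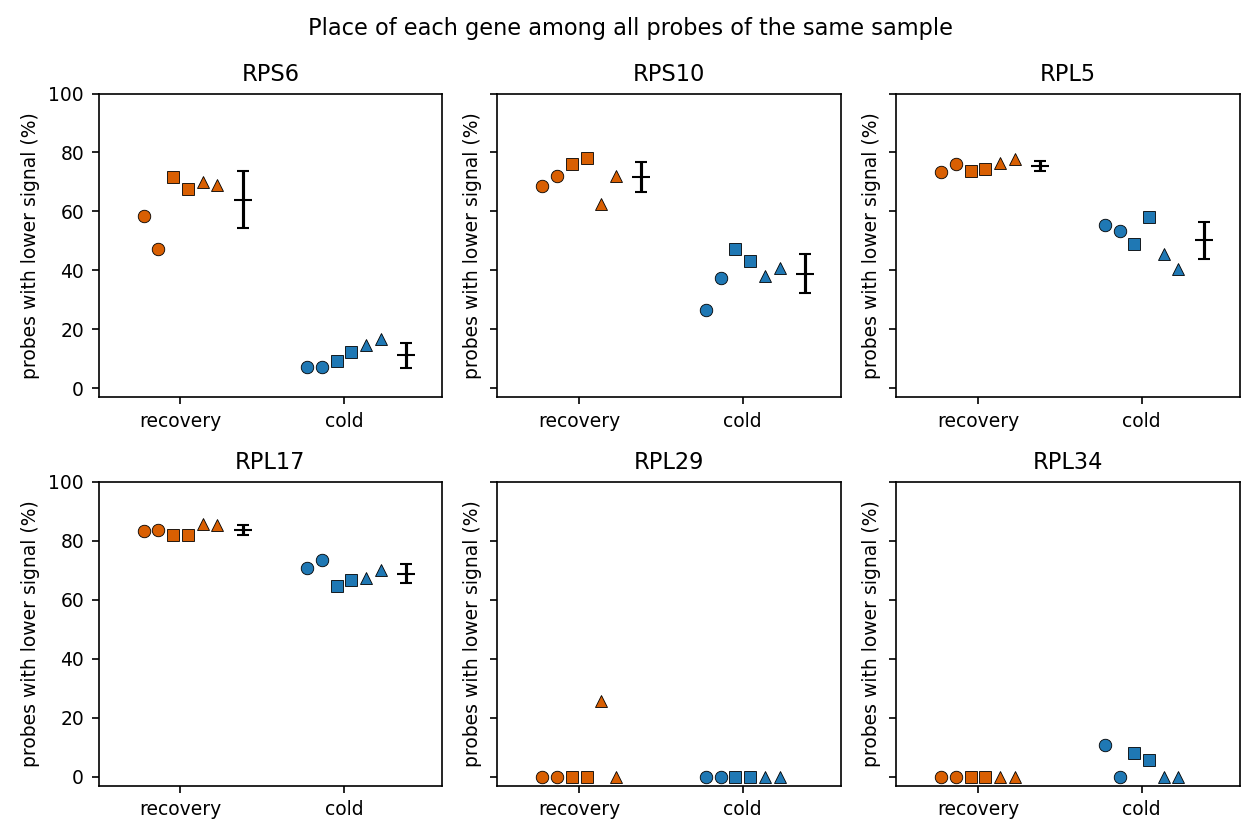
Share of all probes with a lower signal in the same sample (vertical axis, percent) for each gene, with symbols and bars as in the plot of deposited signal. RPS6, RPS10, RPL5 and RPL17 stood higher in all 6 recovery samples than in all 6 cold samples, while RPL29 and RPL34 stood at 0 in most samples.

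The mean place of RPS6 was 64.0% ± 9.63 in recovery and 11.2% ± 4.24 in cold, and that of RPS10 was 71.6% ± 5.03 in recovery and 38.9% ± 6.64 in cold (SD, n = 3 each). RPL5 averaged 75.3% ± 1.67 in recovery and 50.3% ± 6.29 in cold, and RPL17 averaged 83.7% ± 1.84 in recovery and 68.9% ± 3.34 in cold. Among the changes of all 3439 probes, that of RPS6 lay at the 99.5th percentile, RPS10 at the 94.9th, RPL5 at the 92.5th and RPL17 at the 90.7th. Under 5 scalings each of the 4 genes was above the median change of all probes, but the distance differed and the genes did not move together. Above that median, RPS6 was at 2.33 after quantile normalization, 2.31 both as deposited and centred on sample medians, 2.22 with samples scaled to one median before adding the pseudocount, and 2.69 with cyclic loess. RPL17 was at 0.95 after quantile normalization, 0.97 both as deposited and centred, 1.32 scaled before the pseudocount and 0.86 with cyclic loess. Centring shifts all probes of a sample alike, so its distances equal those as deposited by construction and add no further check.

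**Figure D3:**
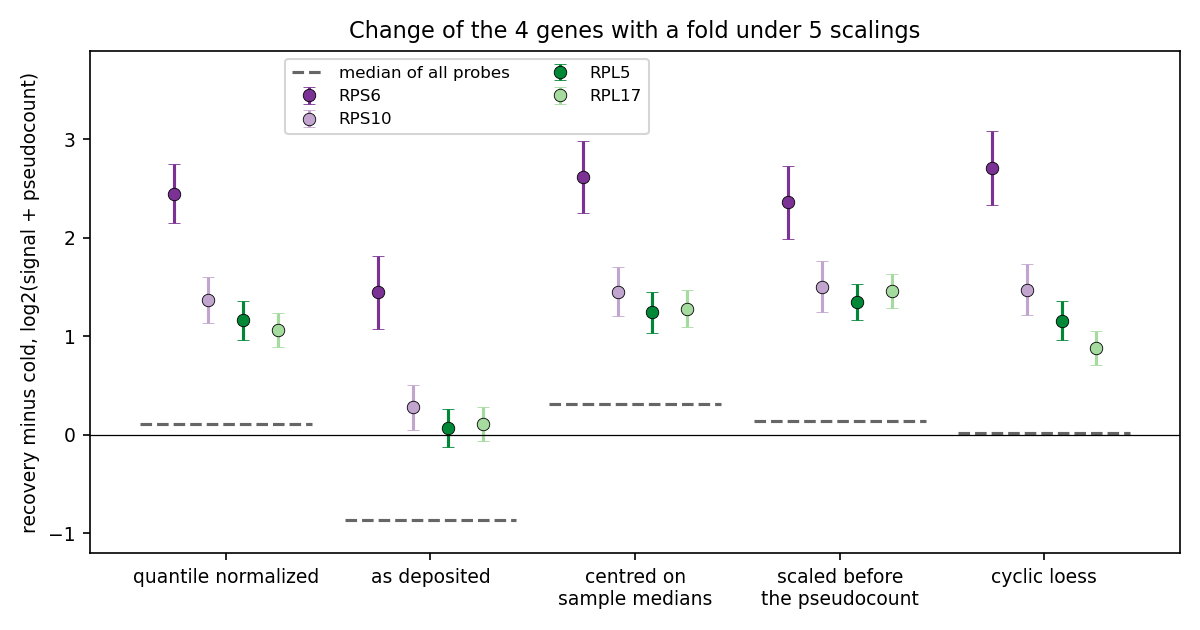
Difference between recovery and cold on the scale of log2(signal + pseudocount) (vertical axis) for RPS6, RPS10, RPL5 and RPL17 under 5 scalings between samples; points are limma estimates with SE, and the dashed line is the median over all 3439 probes in that scaling. All 4 genes lie above the dashed line in each scaling, and as deposited RPS10, RPL5 and RPL17 lie at 0.28, 0.070 and 0.11. Distances to the line are by construction the same as deposited and centred on sample medians.

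Between the subunits, the small-subunit genes changed by 1.37 and 2.45 and the large-subunit genes with a fold by 1.07 and 1.17. The change of RPS6 was above those of both large-subunit genes in 31 of 31 settings in which it was tested, the setting reported here included. That of RPS10 was above both in 31 of 32. The exception was the fit without cold samples 1 and 2, where RPS10 was at 1.25 and RPL5 also at 1.25, slightly higher. All settings refit the same 12 samples, so these counts are not separate support for the order. Whether the differences between small- and large-subunit genes exceed the spread was examined with ratios within a sample, which drop any common factor of that sample. The 4 ratios were each of RPS6 and RPS10 over each of RPL5 and RPL17, as log2 of deposited signals without a pseudocount. A ratio of 2 probes has no meaning as a level, so only its difference between groups is read.

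The log2 ratio of RPS6 over RPL5 averaged -0.75 ± 0.43 in recovery and -3.14 ± 1.99 in cold (SD, n = 3 each), a difference of 2.39 ± 1.18 (SE). The ratio of RPS6 over RPL17 averaged -1.62 ± 0.44 in recovery and -3.98 ± 1.95 in cold, a difference of 2.35 ± 1.16. All 3 averaged recovery values were above all 3 cold values in both ratios, and the exact two-sided permutation p was 0.1 for each, the smallest that 3 against 3 can give, or 0.2 after adjustment over the 4 ratios. With all 12 samples taken as independent, the adjusted exact permutation p was 0.00866 for RPS6 over RPL5, where 5 of 6 recovery samples were above every cold sample, and 0.00864 for RPS6 over RPL17, where 6 of 6 were. That treats neighbours as separate samples, although those in cold were alike (correlations of deviations 0.336 to 0.503). Cold samples 1 and 2, in which RPS6 had signals of 0.00609 and 0.0123, weighed heavily: without them the differences were 1.27 for RPS6 over RPL5 and 1.23 for RPS6 over RPL17. With the pseudocount added the differences were 1.38 and 1.34.

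RPS10 was not set apart from the large-subunit genes. Its log2 ratio over RPL5 averaged -0.26 ± 0.54 in recovery and -0.50 ± 0.46 in cold (SD, n = 3 each), a difference of 0.25 ± 0.41 (SE; exact permutation p = 0.5). Over RPL17 it averaged -1.13 ± 0.59 in recovery and -1.34 ± 0.51 in cold, a difference of 0.21 ± 0.45 (exact permutation p = 0.7). Leaving out neighbouring samples moved the first difference between -0.033 and 0.50 and the second between -0.092 and 0.50. These differences are within the spread between samples, and 3 against 3 could not have passed the threshold in any case.

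**Figure D4:**
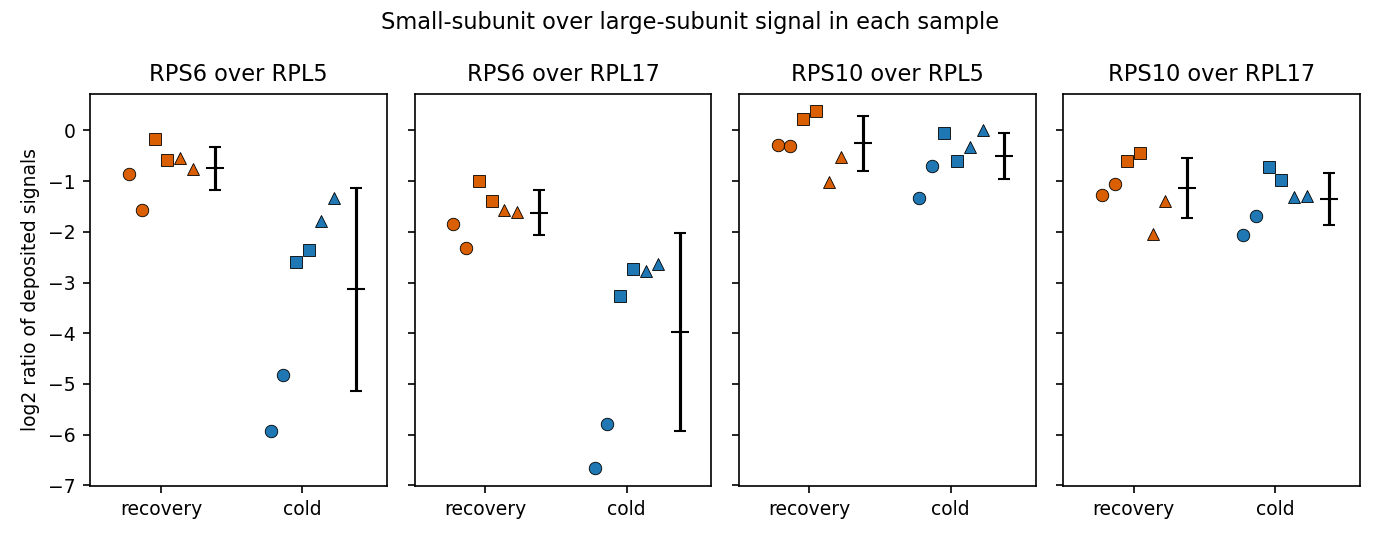
Log2 ratio of deposited signals, small-subunit gene over large-subunit gene (vertical axis), in each recovery and cold sample, with symbols and bars as in the plot of deposited signal. Both ratios of RPS6 are higher in recovery by 2.35 to 2.39 on average, with cold samples 1 and 2 lowest, while both ratios of RPS10 overlap between the groups.

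The genes also differed in how closely samples repeated each other. RPL17 repeated best: samples 1 and 2, 3 and 4, and 5 and 6 of the recovery group differed by 0.461% to 1.68% of their mean, while the averages of those neighbours had an SD of 14.9%. In cold, neighbouring values of RPL17 differed by 7.79% to 10.7%, with an SD between averages of 17.8%. At the other end, neighbouring cold values of RPS6 differed by 16.6% to 67.3% and their averages had an SD of 72.5%. In RPS10, 1 pair of neighbours in each group stood out, at 44.8% in recovery and 37.0% in cold, while the other pairs differed by 11.6% and 16.3% in recovery and by 7.74% and 8.44% in cold. In RPL5 neighbours differed by 1.40% to 17.1% in recovery and by 6.35% to 29.5% in cold. The widest pair exceeded the SD between averages in both groups of RPS10 and RPL5, and in recovery for RPS6 (31.7% against 23.8%). A difference between 2 samples and an SD of 3 averages are unlike measures, so this is a description only.

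Over the 12 normalized samples, the genes closest to each member by Pearson's r among 458 other probes with 1 gene and signal above 0 in every sample were AT1G03810 and AT3G57440 for RPS6 (r = 0.99 and 0.98), AT1G03810 and AT1G21660 for RPS10 (0.96 and 0.96), AT1G70180 and AT1G21660 for RPL5 (0.96 and 0.96), and AT1G50390 and AT2G40980 for RPL17 (0.98 and 0.98). AT1G03810 rose by 1.49 ± 0.17 in recovery and AT1G21660 by 1.08 ± 0.14 (SE, n = 3 per group). The 12 samples form 2 groups and share 1 normalization, so r here mostly reads the difference between groups. As deposited, r was lower, at 0.88 for RPS6 with AT1G03810 and 0.34 for RPL5 with AT1G21660. Between the 4 members themselves r ran from 0.83 to 0.94 after normalization and from -0.45 to 0.57 as deposited. Within the groups, over 6 normalized samples each, it ran from -0.81 to 0.80 in recovery and from -0.68 to 0.42 in cold.

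Few other genes of plastid translation could be found among the measured loci. Of 35 other plastid ribosomal protein genes, 14 plastid translation and ribosome factors and 14 plastid transcription genes looked for, 0 had a probe of their own. The same held for the genes whose symbols or synonyms in the gene table mark them as ribosomal proteins (68), translation factors (37), aminoacyl-tRNA ligases (11) and ribosome assembly or RNA processing factors (4). Most measured loci are listed there without a symbol, so this search does not say how many genes of these classes the array measured. In addition, 3 measured genes that act close to plastid translation were picked by their usual names. They are not a full count of that class. Of the 3, 1 passed the test as higher, against 21.4% of all probes. ATAB2, an activator of the translation of photosystem proteins, rose by 1.01 ± 0.36 (SE; adjusted p = 0.0477), with deposited signals of 0, 0.0480 and 0.126 in recovery (lowest, median and highest) and 0.0274, 0.0529 and 0.0718 in cold. The signal of ATAB2 was above the pseudocount in 4 of 6 samples in recovery and in 4 of 6 in cold, so the size of its change rests on that constant. Halving the constant gave a change of 1.31, and doubling it gave 0.72. The call for ATAB2 was lost under several alternatives, for example with cyclic loess (adjusted p = 0.0677) or without recovery sample 1 (adjusted p = 0.256).

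PAC (PALE CRESS), which binds plastid RNA and is needed for plastid ribosome assembly, was at 0.81 ± 0.31 (adjusted p = 0.0629). Its deposited signal was 0.157, 0.175 and 0.252 in recovery, against 0.114, 0.248 and 0.475 in cold. The call for PAC followed the processing as well. In the limma fit PAC kept its sign without passing in 6 of 13 alternatives, and as deposited it was at -0.38 (adjusted p = 0.369). Under others PAC passed as higher, for example centred on sample medians (0.79, adjusted p = 0.0423) or without the dimmest 25% of probes (0.89, adjusted p = 0.0361). mTERF9, which supports assembly of the plastid ribosome, was at 0.047 ± 0.17 (adjusted p = 0.833). Its deposited signals of 0.966, 1.02 and 1.30 in recovery were all below those of 1.37, 1.55 and 1.71 in cold. In deposited signal, 49.2% of all probes were separated in that direction. The call for mTERF9 followed the scaling: as deposited it passed as lower in recovery (-0.50, adjusted p = 0.0143), and it passed as higher centred on sample medians (0.67, adjusted p = 0.00735) and scaled before the pseudocount (0.91, adjusted p = 0.0105). By place the mTERF9 groups overlapped, at 88.4% to 91.1% in recovery and 87.1% to 90.7% in cold.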

How the data were processed

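The deposited table holds 1 signal per probe and sample on a linear scale from 0 to 100, per the file headers one column for each of 12 samples. How the authors made these signals, and what 0 and 100 stand for, are not described in the sources used here. Probes were named through the platform annotation: of 3439 probes, 692 had 1 gene, 870 had several and 1877 were not listed. The gene table (RefSeq, assembly TAIR10.1) was used for names only, and 690 probes matched a locus. No sequence is shown.

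Signals were taken as log2(signal + 0.0415), the 10th percentile of all positive signals, and quantile normalized (limma 3.58.1, R 4.3.3). Neighbouring samples within a group (1 with 2, 3 with 4, 5 with 6) were averaged, since each was the other's best match in its group (correlations of deviations -0.0326 to 0.0627 in recovery and 0.336 to 0.503 in cold); counting them as 3 is the more cautious choice. The change of every probe came from limma's lmFit and eBayes (with trend), recovery minus cold, and a probe passed at a Benjamini-Hochberg adjusted p below 0.05 over the whole table. A gene listed at 0 in 4 or more samples of a group was given no fold. Ratios were tested by exact permutation (scipy 1.17.1, Python 3.11.15). The fit was tested on simulated data with independent samples and no difference in overall level between the groups. That could not test the choice of scaling or the likeness of neighbours. Precision is limited by how few arrays there are.

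The members and lists were chosen with earlier results of these data known. ATAB2, PAC and mTERF9 were chosen by name after the table had been opened. Named were the 6 genes, measured members of the lists, and for each of the 4 genes above 0 in at least 10 of 12 samples the 2 closest genes. Alternatives covered the scaling, the pseudocount, dim probes, the variance model, the averaging, blocks, and samples left out. The planned search of promoter motifs was not run.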

Additional observations from a re-analysis of the deposited data

Results flagged for a closer look

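RPL29 in recovery sample 5 stood apart from the other samples of its group, at a deposited signal of 0.0363 and above 25.8% of probes, while the other 5 recovery samples were listed at 0. Among 28 groups of 6 values looked at (signals, places and ratios of the 6 genes), these were the 2 with such a gap, and they are the same sample on both scales. With the other values all at 0, any single value above 0 gives such a gap, so the usual chance rate of about 1 in 20 groups does not apply. The value lies below the pseudocount, and recovery sample 6, the neighbour of sample 5, was listed at 0.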

How the results depend on the processing

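RPS6 kept its direction and its call in all 12 alternatives in which it was tested and in all 18 fits with samples left out, with changes from 1.45 to 3.03; it was not among the probes left after removing the dimmest 50%. RPS10, RPL5 and RPL17 kept theirs in 12 of 13 alternatives and in all 18 fits with samples left out, losing the call only as deposited, where 1 of the 6 genes was higher and 2216 probes passed (192 higher, 2024 lower; 8.66% of calls higher, against 52.5% of 1399 after quantile normalization). The share of calls that were higher was 69.8% centred on sample medians, 63.2% scaled before the pseudocount and 46.9% with cyclic loess. Centred on medians, where the median change of all probes was 0.31, 6 of the 6 genes passed as higher, where 36% of all probes did; RPL34 was included although all its recovery samples are listed at 0. With 12 independent samples the ratio differences of RPS6, 2.39 and 2.35, passed the exact permutation test (p = 0.00433 and 0.00216), which 3 against 3 cannot. Neighbouring cold samples were alike, so these p-values may be too small.

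Labels give both groups the numbers 1 to 6, but same-numbered averages correlated by only -0.005 to 0.12 across groups, and single samples by 0.00536 to 0.146, so the numbers were not taken to pair samples. With a replicate block 1381 probes (averaged samples) or 1777 (12 samples) passed, and 4 of the 6 genes were higher in both. Of all probes, 20.6% (averaged samples) and 27.5% (12 samples) passed as higher in these fits. As deposited, the changes were -0.040 for ATAB2, -0.38 for PAC and -0.50 for mTERF9. mTERF9 passed as lower there and as higher when centred on medians (0.67) or scaled before the pseudocount (0.91); it was at -0.15 with cyclic loess and ran from -0.067 to 0.16 with samples left out. ATAB2 kept its call in 6 of 18 fits with samples left out. The cause of these differences was not tested. For RPS6 in cold, and for ATAB2, RPL29 and RPL34, signal close to 0 limits what can be measured.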
